A study of Mus musculus with 4 samples.

Results

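Back skin treated with all-trans retinoic acid (ATRA) and nicotinamide (NIC) together was compared with skin that received only the oil/water cream base. All groups were BALB/c males aged 8 weeks, and the creams were applied for 5 days. The ATRA+NIC group received a 0.1% ATRA cream and a NIC cream, and the Control group the base alone. The other groups, used only beside the main comparison, received either the 0.1% ATRA cream or the NIC cream. The concentration of NIC is not stated in the labels, nor is how many mice gave RNA to an array. The title of the series names the epidermis, while the sample labels name skin. Total RNA was labelled with Cy3 and hybridised to NimbleGen expression arrays, 1 array for each group, so the comparison rests on 2 of the 4 arrays in the series. No difference has a spread between replicates, a test or an error of its own, and "higher" and "lower" below describe these 2 arrays only. Genes were described where their log2 intensity averaged at least 8.5 over all 4 arrays, an intensity of 362. This limit was met by 6366 of 24204 gene names, or 26.3%, of which 5158 have a gene symbol and 1208 a predicted or clone name. These are called bright genes here.

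ATRA, also called tretinoin, is the active acid made from vitamin A. It enters the nucleus with binding proteins such as Crabp2 and acts through retinoic acid receptors that pair with retinoid X receptors, and Cyp26 enzymes break it down. In skin, retinoids are known for raising keratinocyte turnover, for irritation and for effects on hair growth. Nicotinamide is recycled by Nampt into NAD, the coenzyme that sirtuins and PARPs consume, and it is used in creams to support the skin barrier. That barrier is the cornified layer, in which keratin filaments bound by filaggrin sit inside an envelope of loricrin, involucrin, small proline-rich (SPRR) and late cornified envelope (LCE) proteins, crosslinked by transglutaminases and sealed with ceramides. The hair shaft is built from its own keratins and from keratin-associated proteins (KRTAP) inside an inner root sheath, by follicles in their growth phase only. In whole skin, fewer cells of a type and less RNA per cell cannot be told apart.

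The arrays were first checked against the labelled tissue. Depth here is signal over background: the random control probes read between 33.99 and 36.3 on the 4 arrays, and 0 bright genes read under 2 times the random probes on Control or ATRA+NIC. All 8 keratinocyte markers were bright, with a median intensity of 28145 on Control and 30534 on ATRA+NIC. Krt14, the basal keratin, read 32685 on Control and 34261 on ATRA+NIC, and Krt10, its counterpart in differentiated cells, read 31101 and 38720. The arrays also read genes that are known from liver cells and not from skin. In a panel of 40 hepatocyte genes, chosen after values had been seen, all 40 read at least 2 times the random probes on all 4 arrays and 38 were bright. Alb, serum albumin, read 11694 on Control and 14689 on ATRA+NIC, with 15459 under ATRA alone and 8302 under NIC alone. Cyp2e1, a liver cytochrome, read 28202, 28048, 32254 and 25561 in the same order, and Hnf4a, a hepatocyte transcription factor, 1191, 1542, 1228 and 1155. The summed intensity of the panel was 213624 on Control and 265533 on ATRA+NIC, with 236233 under ATRA alone and 180942 under NIC alone. Hepatocyte genes were thus read on every array labelled skin, with the highest sum on ATRA+NIC and the lowest on NIC. The 38 bright panel genes had a median difference of 0.45 between ATRA+NIC and Control, against 0.06 for all bright genes. Of 12 heart muscle genes, 5 were bright, with a median difference of 0.62: Tnni3, cardiac troponin I, read 421 on Control and 1099 on ATRA+NIC, with 586 under ATRA alone and 306 under NIC alone. Panels of kidney tubule (10 genes), lung epithelium (5), brain (7) and testis (8), chosen in the same way, held 0 bright genes. Of 9 exocrine pancreas genes 1 was bright (Amy2a5, an amylase), and of 8 intestine genes 2 were (Apoa4, an apolipoprotein, and Fabp2, a fatty acid carrier), none of them 2-fold apart. Other tissue in the RNA, mislabelled RNA and cross-hybridisation of probes cannot be told apart here, and the part of these values in the differences below was not tested.

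**Figure D1:**
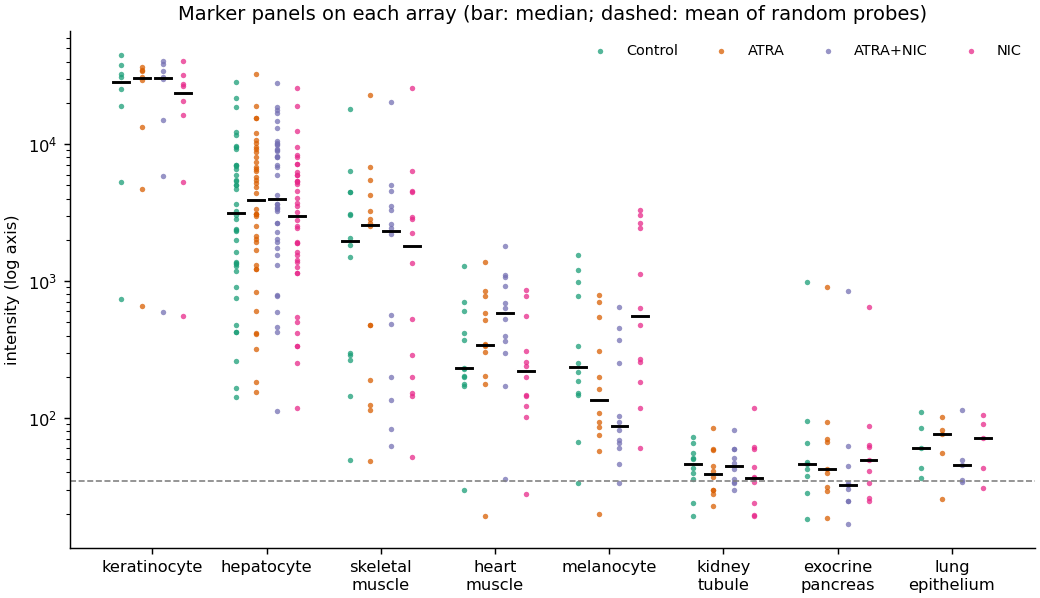
Intensity (log axis) of every gene in 8 marker panels, with 1 point for each gene, 1 colour for each array, a bar at the panel's median and a dashed line at the mean of the random probes. The hepatocyte panel has medians of 3129 on Control and 3944 on ATRA+NIC, with 3852 under ATRA alone and 2982 under NIC alone, while the kidney tubule panel lies between 36.6 and 46.3.

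Sequence upstream of the gene start was available for many of the genes that differed. The table used is from RefSeq on build GRCm38.p6 and matched 4354 of the 6366 bright genes, 104 of the 138 that were at least 2-fold higher and 137 of the 222 that were at least 2-fold lower on ATRA+NIC. The last 150 bases before the start are shown for 4 genes of the hair shaft, both calprotectin genes and the 4 LCE3 genes, because these groups carried wide differences in each direction. Capitals mark TATAAA, a form of the TATA box, in Krtap4-7, Krtap4-16, Krt34 and S100a8. They mark CTTTGAA, a LEF/TCF motif, in Krt34 and GATAAAA in Lce3b, Lce3c and Lce3f. The windows of Krtap3-3, S100a9 and Lce3a hold none of the exact motifs searched and have no capitals. Other TATA-type runs were not searched, and the Krtap3-3 window holds one of them, tatataa.
Krtap4-7 (chr11:99644090-99644239, minus strand): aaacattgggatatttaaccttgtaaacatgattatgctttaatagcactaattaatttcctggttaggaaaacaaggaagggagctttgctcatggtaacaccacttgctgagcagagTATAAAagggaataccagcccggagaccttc
Krtap4-16 (chr11:99851606-99851755, minus strand): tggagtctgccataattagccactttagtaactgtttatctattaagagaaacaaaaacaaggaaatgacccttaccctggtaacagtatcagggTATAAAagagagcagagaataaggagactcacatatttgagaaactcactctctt
Krtap3-3 (chr11:99550864-99551013, minus strand): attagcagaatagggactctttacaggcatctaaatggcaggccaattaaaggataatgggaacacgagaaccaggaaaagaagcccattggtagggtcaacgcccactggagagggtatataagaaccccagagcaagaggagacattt
Krt34 (chr11:100041555-100041704, minus strand): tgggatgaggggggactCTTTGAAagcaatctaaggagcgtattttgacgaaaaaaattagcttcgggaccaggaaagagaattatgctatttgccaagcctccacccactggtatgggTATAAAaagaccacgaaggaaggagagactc
S100a8 (chr3:90668921-90669070, plus strand): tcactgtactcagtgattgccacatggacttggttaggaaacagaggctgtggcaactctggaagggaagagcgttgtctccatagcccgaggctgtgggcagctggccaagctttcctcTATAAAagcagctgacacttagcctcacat
S100a9 (chr3:90695722-90695871, minus strand): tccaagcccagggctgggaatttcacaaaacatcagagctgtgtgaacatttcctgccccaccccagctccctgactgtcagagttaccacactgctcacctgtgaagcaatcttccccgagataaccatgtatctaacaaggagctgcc
Lce3a (chr3:92926231-92926380, minus strand): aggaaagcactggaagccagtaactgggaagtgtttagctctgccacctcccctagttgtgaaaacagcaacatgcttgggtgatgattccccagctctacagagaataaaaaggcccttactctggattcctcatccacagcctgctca
Lce3b (chr3:92932829-92932978, plus strand): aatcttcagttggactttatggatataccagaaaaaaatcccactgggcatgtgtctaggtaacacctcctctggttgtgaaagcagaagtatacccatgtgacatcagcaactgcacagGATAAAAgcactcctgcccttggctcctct
Lce3c (chr3:92944336-92944485, plus strand): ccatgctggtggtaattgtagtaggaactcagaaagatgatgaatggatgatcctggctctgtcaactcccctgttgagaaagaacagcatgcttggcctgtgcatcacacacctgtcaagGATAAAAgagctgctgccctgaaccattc
Lce3f (chr3:92992067-92992216, plus strand): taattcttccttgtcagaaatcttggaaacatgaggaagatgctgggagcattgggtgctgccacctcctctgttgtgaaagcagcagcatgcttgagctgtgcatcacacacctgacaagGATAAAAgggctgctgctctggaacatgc
The TATAAA run begins 31 bases before the start in Krtap4-7 and Krt34, 55 bases before it in Krtap4-16 and 30 bases before it in S100a8. On either strand of the 150 bases, TATAAA was found in 28 of the 39 matched hair-list genes that were at least 2-fold lower, or 71.8%. It was found in 36.5% of all matched 2-fold lower genes, in 18.3% of the 2-fold higher genes, in 6.89% of bright genes and in 7.57% of all 32851 windows of the table. GATAAAA, a run that was picked after these windows had been read, begins 29 or 30 bases before the start of Lce3b, Lce3c and Lce3f and is absent from that of Lce3a. It was in 3 of the 10 matched genes of the LCE3, SPRR and alarmin lists that were 2-fold higher, in 4.81% of all 2-fold higher genes, in 4.38% of the 2-fold lower genes, in 1.29% of bright genes and in 1.63% of all windows. Lce3b, Lce3c and Lce3f, from which the run was picked, are 3 of the 5 higher genes that hold it, so its share there follows largely from that choice. AGGTCA, the core site of retinoid and other nuclear receptors, was in 17 of 104 windows of the 2-fold higher genes (16.3%), in 7.30% of the 2-fold lower genes and in 7.79% of bright genes. TGANTCA, the AP-1 motif, was in 7.69%, 5.84% and 4.2% of the same sets, and CTTTGAA in 1.92%, 2.92% and 1.95%. These 3 motifs were found in 0 of the same 10 genes, and TATAAA in 2. Hair shaft genes lie in clusters of related copies, so their windows are not independent of each other, and a match is a description of letters.

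Between Control and ATRA+NIC, 138 bright genes were at least 2-fold higher with both creams (2.17%) and 222 at least 2-fold lower (3.49%). These shares are the background for the list counts below. A short list with few or no genes past 2-fold is near them, and such a count says nothing particular about the list. The median difference of all bright genes was 0.06 on the log2 scale, the middle 95% lay between -1.19 and 0.97, and the standard deviation over genes was 0.60. The lower set held 52 genes of the hair lists, 32 of them KRTAP genes, 77 predicted or clone names and 93 other gene symbols. The higher set held 0 hair genes, 4 genes of the hepatocyte panel and 15 predicted or clone names. Genes read by several array targets show how far the difference between ATRA+NIC and Control varied from target to target. The pooled standard deviation of that difference between targets of a gene was 0.45 (log2, 2533 bright genes). Of the 31 higher genes with several targets, 12 were 2-fold higher on each of them, and of the 37 lower genes 22 were 2-fold lower on each.

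**Figure D2:**
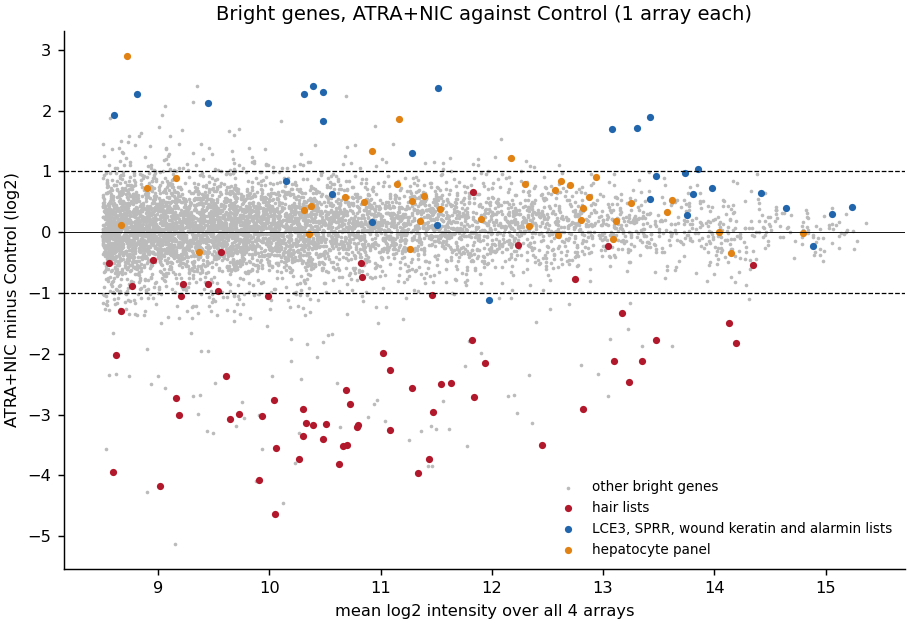
Difference between ATRA+NIC and Control (log2) against the mean log2 intensity over all 4 arrays, 1 point for each of the 6366 bright genes, with dashed lines at 2-fold. Hair list genes (red) fill the lower part of the plot, the LCE3, SPRR, wound keratin and alarmin genes (blue) lie mostly above 0, and the hepatocyte panel (orange) has a median of 0.45.

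Hair shaft genes were much lower with both creams. The hair-cycle stage of each skin is not stated in the labels and, with 1 array in each group, cannot be told apart from the cream. All 7 bright hair shaft keratins were at least 2-fold lower, with a median of -3.15. Krt34 (chromosome 11, 99898701 to 99902846 on MM9), a keratin of the shaft cortex whose promoter is shown above, read 7193 on Control and 630 on ATRA+NIC, with 71.2 under ATRA alone and 21543 under NIC alone. Krt33a, from the same type I hair keratin cluster, read 10620 on Control and 799 on ATRA+NIC, with 270 under ATRA alone and 25443 under NIC alone. Both arrays with ATRA were low and the NIC array was the highest, and the ATRA+NIC array lay between ATRA and Control. Krt81, a type II hair keratin, was the least far apart of the 7, with 10449 on Control and 1594 on ATRA+NIC, a difference of -2.71.

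Of 40 KRTAP genes on the array, whose small proteins crosslink hair keratins, 32 were bright. These 32 were all at least 2-fold lower with both creams, from -4.63 to -1.34 with a median of -3.02. Krtap4-7, on chromosome 11 from 99504457 to 99505378, gave 4371 on Control and 177 on ATRA+NIC, with 132 under ATRA alone and 12516 under NIC alone. Krtap5-1 (chromosome 7), at the other end of the range, read 23886 on Control and 9464 on ATRA+NIC, with 1058 under ATRA alone and 30546 under NIC alone. On these arrays 31 of the 32 read higher with both creams than with ATRA alone, and all 32 read higher on NIC than on Control. On ATRA 8 of the 32 were under 2 times the random probes, so their level there is only a bound, and on ATRA+NIC 0 were. The brightness limit averages all arrays, so members high on Control and NIC passed it, such as Krtap3-3 with 111 on ATRA+NIC. The 8 members that were not bright were less uniform. Krtap12-1, Krtap17-1, Krtap5-5 and Krtap9-5 were also at least 2-fold lower. Krtap20-2 (-0.87) and Krtap24-1 (-0.78) were under 2-fold. Krtap13 (0.48) and Krtap6-3 (0.08) read under 2 times the random probes on Control and ATRA+NIC. The family is made of near copies, so a target may have read more than one member.

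The inner root sheath, which moulds the growing shaft, followed with 7 of 8 bright genes at least 2-fold lower and a median of -2.07. Krt73, a sheath keratin, read 17732 on Control and 3222 on ATRA+NIC, with 4085 under ATRA alone and 36696 under NIC alone, and Tchh, the sheath protein trichohyalin, read 31273, 11162, 6524 and 46098. Gata3, a transcription factor of the sheath, differed by -0.97. Of 12 bright regulators of the hair matrix and the hair cycle 4 were at least 2-fold lower: S100a3 (-2.91), a calcium-binding protein of the hair cuticle, Dlx3 (-1.98), a homeobox factor of the matrix, Bmp2 (-1.30), a growth factor that restrains the follicle stem cells, and Foxn1 (-1.05), the factor missing in nude mice. Ovol1, a factor of differentiating keratinocytes in the same list, was 0.66 higher. Bulge and stem cell genes had a median of -0.74, with 2 of 7 at least 2-fold lower. Krt15, a bulge keratin, read 3111 on Control and 1513 on ATRA+NIC, with 1930 under ATRA alone and 6957 under NIC alone, and Sfrp1, a WNT inhibitor, differed by -1.05. The differences thus narrowed from the shaft and sheath to the regulators and stem cell genes. Over the 5 hair lists together 52 of 66 bright members were at least 2-fold lower and 0 higher, while 35 of the 101 on the array were not bright.

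Pigment cell genes were lower as well. Of 12 melanocyte markers 4 were bright, with a median of -1.41. Mlana, a melanosome protein, read 977 on Control and 253 on ATRA+NIC, with 308 under ATRA alone and 2648 under NIC alone, and Si, the fibril protein now named Pmel, read 1553, 457, 791 and 3324. For both, ATRA+NIC was the lowest of the 4 arrays and NIC the highest. Tyrp1 differed by -1.06 and Dct by -0.90, both enzymes of pigment synthesis. BALB/c mice are albino, and their follicle melanocytes make no pigment.

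Among lower genes outside the keratins and the hair lists, Cnksr3 (chromosome 10, 3211034 to 3227477), a scaffold protein of kinase signalling, stood lowest. It read 9164 on Control and 261 on ATRA+NIC, with 236 under ATRA alone and 185 under NIC alone through 1 target, so it was bright on the Control array alone and its difference of -5.14 rests on that array. Vsig8, an immunoglobulin-family protein known from hair cells, read 1569 on Control and 163 on ATRA+NIC, with 233 under ATRA alone and 3879 under NIC alone. Gprc5d, an orphan receptor of hair-forming cells (-2.36), Car6, a secreted carbonic anhydrase (-2.57), Crym, which binds thyroid hormone (-2.37), Cryba4, a crystallin (-2.35), Ly6g6d (-2.48) and Lrrc15 (-2.37) also read higher on NIC than on Control. Retnla, a resistin-like protein of alternatively activated macrophages, had another pattern, with 7981 on Control and 2009 on ATRA+NIC, with 2326 under ATRA alone and 5797 under NIC alone. Atp12a, a proton and potassium pump, read 5743 on Control and 1669 on ATRA+NIC, with 2914 under ATRA alone and 5692 under NIC alone. Acox2, a peroxisomal oxidase, differed by -1.84, and Fcgbp, a mucus protein, by -2.33 with targets from -3.65 to -0.50.

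Stress-type envelope genes and alarmins stood at the upper end. The LCE3 genes, which keratinocytes switch on after barrier injury, were at least 2-fold higher in 4 of 4 cases, with a median of 2.19. Lce3c, at chromosome 3, 92749137 to 92749507, gave 1345 on Control and 6969 on ATRA+NIC, with 7194 under ATRA alone and 1095 under NIC alone. Lce3b read 530 on Control and 2299 on ATRA+NIC, with 1730 under ATRA alone and 113 under NIC alone. Both ATRA arrays were high for these genes, and NIC alone was below Control. Of 13 bright SPRR genes 2 were at least 2-fold higher and 1 lower, with a median of 0.63. Sprr2g read 961 on Control and 4776 on ATRA+NIC, with 3604 under ATRA alone and 251 under NIC alone, and the pseudogene Sprr2j-ps differed by 1.93. Sprr2j-ps read 259, 989, 1027 and 86.5 in the same order. Like Lce3f, it met the brightness limit through the arrays with ATRA. Sprr4 differed by -1.12, and the other 10 lay between -0.23 and 0.98. SPRR2 and LCE3 copies resemble each other, so single values within each family are less certain than the family.

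Wound keratins and alarmins, which mark injured or inflamed epidermis, had 7 of 13 bright members at least 2-fold higher, 0 lower and a median of 1.04. Il33 (chromosome 19, 30020279 to 30035207), a cytokine released from damaged epithelium, read 661 on Control and 3500 on ATRA+NIC, with 3027 under ATRA alone and 468 under NIC alone. Defb3, a beta-defensin, read 1030.5 on Control and 4959 on ATRA+NIC, with 4433 under ATRA alone and 116 under NIC alone. S100a8 and S100a9, the chains of calprotectin, were 1.72 and 1.90 higher: S100a9 read 7360 on Control and 27480 on ATRA+NIC, with 28062 under ATRA alone and 2583 under NIC alone. Slpi, an inhibitor of neutrophil elastase, was 1.69 higher, Lcn2, which binds bacterial siderophores, 1.30 and the wound keratin Krt6a 1.04. Krt16 (0.30), Krt6b (0.40) and Krt17 (-0.53), further wound keratins, were under 2-fold. S100a8 and S100a9 were also the only bright genes among 12 neutrophil markers, of which 6 read under 2 times the random probes on Control and 4 on ATRA+NIC. Of the 12, 11 read higher on ATRA+NIC, with a median difference of 0.90, and their summed intensity was 15697 on Control and 53349 on ATRA+NIC, most of it from this pair. Elane, neutrophil elastase, read 26.8 and 71.4, and Mpo, myeloperoxidase, read 105 and 48.0. The part of neutrophils in the alarmin differences was not tested.

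**Figure D3:**
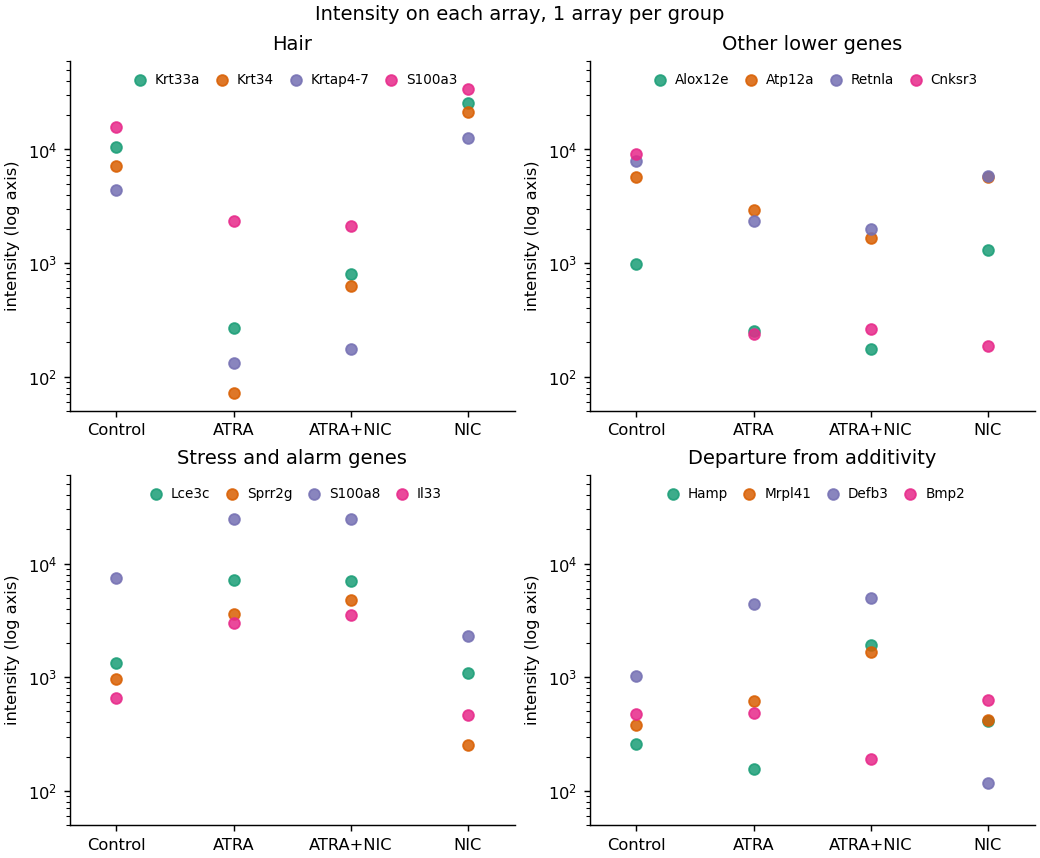
Intensity (log axis) of 16 genes on each of the 4 arrays, 1 array for each group and 1 colour for each gene in a panel. Hair genes are low on ATRA and ATRA+NIC and highest on NIC, stress genes run the other way, and Hamp is highest with both creams, at 1937.

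Most genes of the ordinary envelope and of keratinocyte differentiation were under 2-fold from Control. Krt77, Krt15 and Lce1m were at least 2-fold lower, and all 9 constitutive LCE genes were below 0. None of the 7 genes of the filaggrin, loricrin and involucrin list was 2-fold apart, and their median was -0.15. Over all bright genes 2.17% were 2-fold higher and 3.49% lower, so 0 of 7 is near those shares. Flg, filaggrin, read 18945 on Control and 15062 on ATRA+NIC, with 13285 under ATRA alone and 16339 under NIC alone. Lor, loricrin, read 44983, 40494, 34236 and 40540, and Ivl, involucrin, 2585, 2331, 1991 and 5618. The constitutive LCE genes had a median of -0.49, the opposite side of 0 from LCE3, with Lce1m 2-fold lower (-1.24) and all 9 below 0. Among 8 bright epidermal keratins Krt77, a keratin of mouse interfollicular epidermis, differed by -2.70 and Krt15 by -1.04, while Krt1 (-0.28), Krt5 (0.24), Krt10 (0.32) and Krt14 (0.07) were under 2-fold. Transglutaminases that crosslink the envelope were slightly higher, Tgm1 by 0.41 and Tgm3 by 0.76, and Padi4, a deiminase, differed by -0.98.

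Proteases that shed the outer layer and their inhibitors had medians of 0.35 (15 genes) and 0.53 (13 genes). Klk10, a kallikrein, read 2637 on Control and 6181 on ATRA+NIC, with 7656 under ATRA alone and 3494 under NIC alone, and was the one protease at least 2-fold higher. Tmprss13, a membrane serine protease, differed by -1.02 and St14, matriptase, by -0.83. Serpinb2, an inhibitor of plasminogen activators, was 1.26 higher, and Slpi, described above, was the other inhibitor past 2-fold. The 26 bright ceramide and barrier lipid genes had a median of -0.03, with 1 higher and 1 lower. Degs2, which makes phytoceramides, read 1428 on Control and 3271 on ATRA+NIC, with 3521 under ATRA alone and 1112 under NIC alone, and the epidermal lipoxygenase Alox12e read 990, 175, 254 and 1305. Alox12b, the lipoxygenase needed for the lipid envelope, was 0.81 higher. Of 19 cholesterol genes 1, Idi1 of the isoprenoid pathway, was at least 2-fold higher (1.01), and 0 of 13 sebaceous lipid genes were 2-fold apart. Among desmosome genes Dsg3, a basal desmoglein, was 1.12 higher, and among tight junction genes Cldn2 differed by 1.20 and Cldn4 by -1.24. Aqp3, the glycerol and water channel of keratinocytes, was 0.63 higher, with 7759 on Control and 11974 on ATRA+NIC. Beside 2.17% higher and 3.49% lower over all bright genes, the list counts of 0 or 1 in either direction are near those shares.

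**Figure D4:**
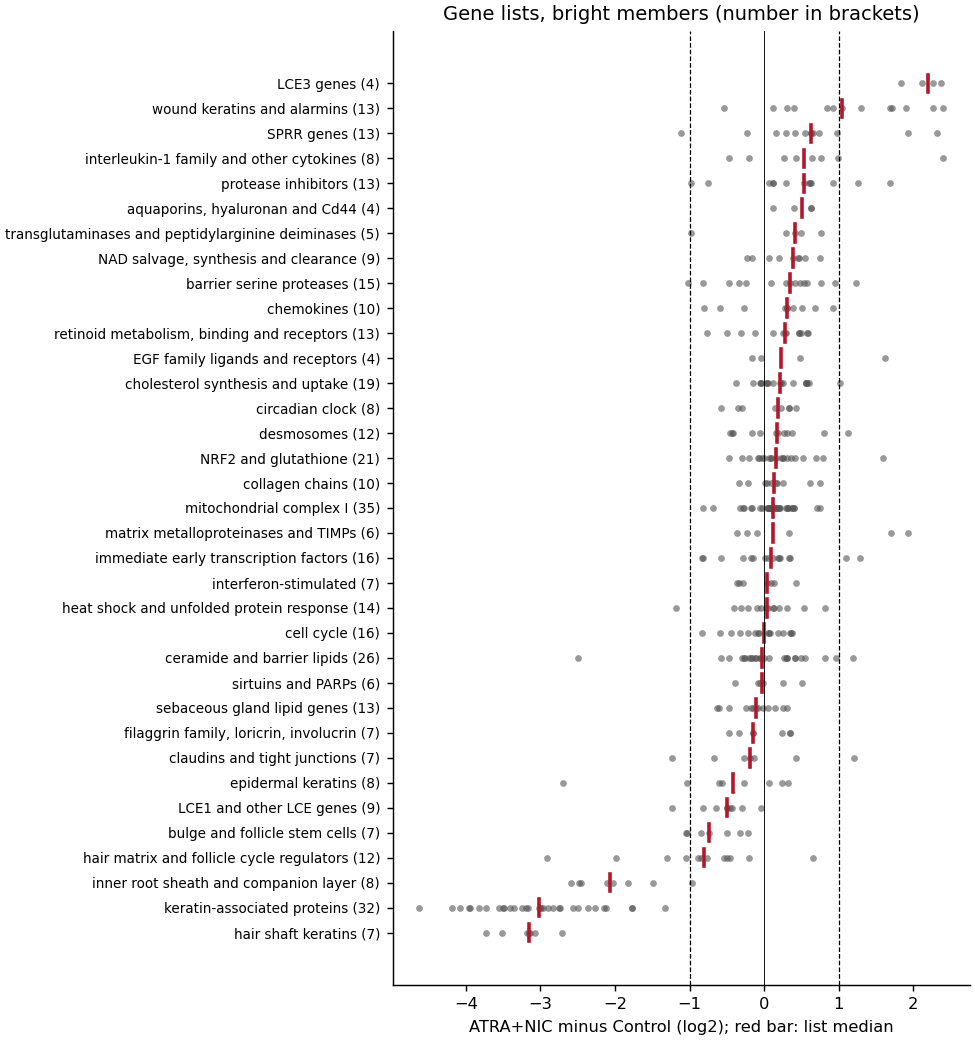
Difference between ATRA+NIC and Control (log2) for each bright member of 35 gene lists, 1 point for each gene, with a red bar at the list's median and dashed lines at 2-fold. Hair shaft keratins and KRTAP genes have medians of -3.15 and -3.02, LCE3 genes 2.19, and most other lists lie near the median of all bright genes, 0.06.

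Bright genes of retinoid and NAD metabolism were all under 2-fold by the mean of their targets, while Nnmt and Sirt1, both below the brightness limit, differed by 1.49 and 1.74. Of 13 bright genes of retinoid metabolism, binding and signalling 0 were 2-fold apart, with a median of 0.29. Over all bright genes 2.17% were 2-fold higher and 3.49% lower, so 0 of 13 is near those shares. Crabp2, which carries retinoic acid to the nucleus, read 9767 on Control and 14542 on ATRA+NIC, with 14341 under ATRA alone and 9651 under NIC alone. Cyp26b1, which clears retinoic acid, differed by 0.29, Aldh1a1, which makes it, by 0.59, and Rarg, the main retinoic acid receptor of keratinocytes, by -0.76. The 2 Rarg targets gave -1.16 and -0.37, so 1 of them was past 2-fold. Rarb, a receptor gene induced by retinoic acid in many cells, was not bright, reading from 36.6 to 41.6 over the 4 arrays, close to the random probes. For NIC, the 9 bright genes of NAD synthesis and clearance had a median of 0.39 and 0 were 2-fold apart. Nampt, which recycles nicotinamide, read 702 on Control and 967 on ATRA+NIC, with 986 under ATRA alone and 823 under NIC alone, and Haao, of NAD synthesis from tryptophan, was 0.75 higher. Nnmt, which methylates nicotinamide, was not bright and read 192 on Control and 540 on ATRA+NIC, with 409 under ATRA alone and 367 under NIC alone. This is the mean of 2 unlike targets. The brighter Nnmt target read 696 on Control and 2156 on ATRA+NIC and stood above the limit on each array. The dimmer read 52.8 and 135, so the averaging alone put Nnmt below the limit. Their differences were 1.63 and 1.36. Sirt1, an NAD-consuming deacetylase, was also below the limit, with 77.9 on Control and 261 on ATRA+NIC, with 87.2 under ATRA alone and 230 under NIC alone. The 6 bright sirtuin and PARP genes had a median of -0.03.

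Among EGF-family ligands, which drive keratinocyte growth, Epgn (epigen) was the one ligand that was bright by the mean of its targets. It read 277 on Control and 855 on ATRA+NIC, with 476 under ATRA alone and 396 under NIC alone. Areg, amphiregulin, was below the limit at 78.2 on Control and 194 on ATRA+NIC. Hbegf read 181 and 225 as the mean of 2 unlike targets. Its brighter target read 576 on Control and 1517 on ATRA+NIC, a difference of 1.40. The dimmer Hbegf target read 57.2 and 33.3, under 2 times the random probes. Cell cycle genes had a median of -0.01 with 0 of 16 at least 2-fold apart, and the proliferation marker Mki67 read 1078 on Control and 1015 on ATRA+NIC, with 1208 under ATRA alone and 1022 under NIC alone. Klf4, a factor of barrier formation, was 1.10 higher and Nr4a1, an orphan nuclear receptor, 1.28 higher, the 2 of 16 immediate early genes past 2-fold. Gsta4, a glutathione transferase of the NRF2 list, was 1.59 higher, the 1 of 21. Hspb1, a small heat shock protein, differed by -1.18, the 1 of 14 in its list. Complex I (35 genes, median 0.12), interferon-stimulated (7, 0.04) and clock genes (8, 0.18) held 0 genes that were 2-fold apart. Over all bright genes 2.17% were 2-fold higher and 3.49% lower, so the list counts of 0 or 1 given here are near those shares.

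In each list of the dermis and of immune cells 0 to 2 bright genes were past 2-fold, beside 2.17% higher and 3.49% lower over all bright genes. Mmp3, stromelysin, read 239 on Control and 910 on ATRA+NIC, with 1064 under ATRA alone and 325 under NIC alone, and Timp1, an inhibitor of such enzymes, 495, 1606, 2465 and 262. These were the 2 of 6 bright genes of their list past 2-fold, and both were highest on ATRA. The 10 bright collagen chains had a median of 0.13 and 0 past 2-fold. Of 8 bright cytokine genes Il33 was the 1 past 2-fold, with Il1rn, the interleukin-1 receptor antagonist, at 0.99, and 0 of 10 chemokines were. Marker lists of mast cells (5 bright, median 0.69), endothelium (6, 0.25), and macrophages (8, 0.05) held 0 genes past 2-fold. Of 10 bright fibroblast markers, median -0.04, Pdgfrb, a growth factor receptor, was higher (1.23) and Thy1, a surface protein, lower (-1.10). Thy1 was also the 1 bright gene of 15 T, NK and B cell markers. Antigen presentation genes of the Langerhans and MHC class II list were lower in 7 of 7 cases with 0 past 2-fold and a median of -0.55, for example Cd74 with 3044 on Control and 1960 on ATRA+NIC.

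The 15 highest genes also held members outside these groups. Hamp (chromosome 7, 31727387 to 31729019), the iron hormone hepcidin that liver cells secrete, was the highest at 2.90 and belongs to the hepatocyte panel described above. It read 259 on Control and 1937 on ATRA+NIC, with 154 under ATRA alone and 414 under NIC alone, so the array with both creams stood far above the other 3. Mrpl41, a mitochondrial ribosomal protein, read 378, 1669, 616 and 422, and Wbp4, a splicing factor, 227, 836, 350 and 310. Wbp4 was above an intensity of 362 on ATRA+NIC alone, and Hamp on ATRA+NIC and NIC. Both were read by 1 target and met the brightness limit through the ATRA+NIC array, so their high place rests on that array. Lpo, lactoperoxidase, read 345 on Control and 1456 on ATRA+NIC, with 1110 under ATRA alone and 148 under NIC alone. Bhmt, a liver methyltransferase, differed by 1.86, but its 2 targets gave 0.54 and 3.19. G6pc, of glucose release, and Cps1, of the urea cycle, were the other 2 panel genes past 2-fold, at 1.33 and 1.22. Without the panel 134 genes remained at least 2-fold higher and 222 lower. The genes Lrg1 (1.53), C4bp (1.45), Cyp2c70 (1.42), Ugt3a1 (1.37) and Saa2 (1.09), picked after their values were seen and also known from liver, were at least 2-fold higher too.

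Each cream alone was set beside both creams. All of these differences share the Control array, and the genes were chosen on it, so their likeness is no independent evidence. Alone, ATRA gave 92 bright genes at least 2-fold higher than Control (1.45%) and 189 lower (2.97%), and NIC gave 160 higher (2.51%) and 151 lower (2.37%). The 138 higher genes had a median of 1.21 with both creams, 0.84 with ATRA and 0.33 with NIC. The 222 lower genes had medians of -1.67, -1.86 and 0.41 in the same order. KRTAP genes had medians of -3.02 with both creams, -5.10 with ATRA and 1.53 with NIC, and LCE3 genes 2.19, 2.18 and -1.70. Wound keratins and alarmins had 1.04, 1.06 and -0.76, and melanocyte markers -1.41, -0.87 and 1.38. The hepatocyte panel had 0.45, 0.09 and -0.21. In hair and stress genes the values with both creams lay on the side of ATRA, and those with NIC alone on the other side of Control.

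**Figure D5:**
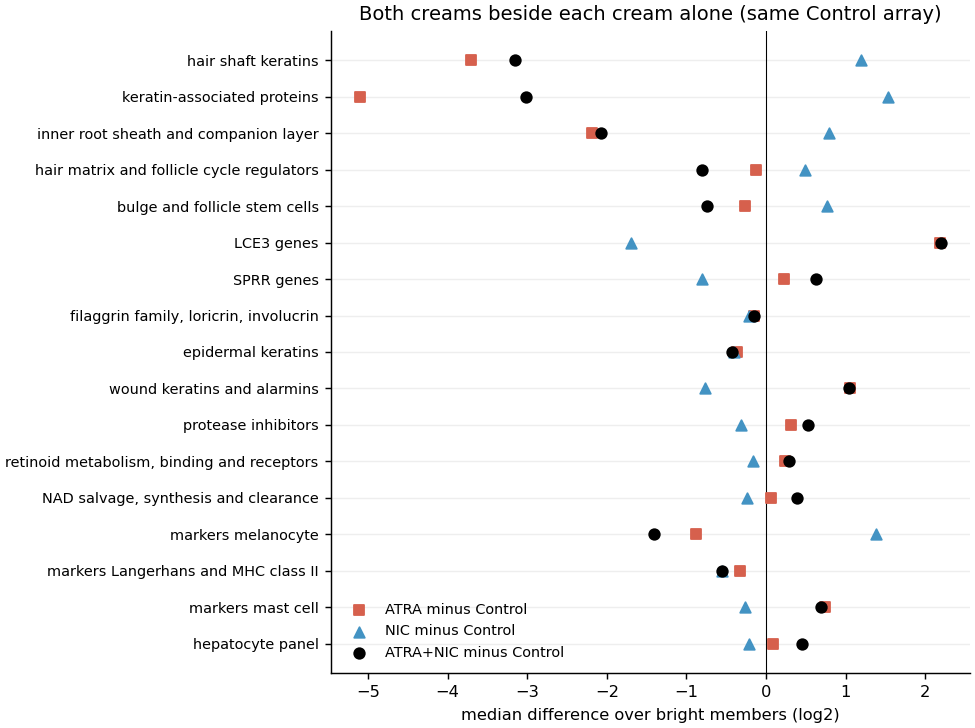
Median difference from Control (log2) over the bright members of 17 gene lists for both creams (black circles), ATRA alone (red squares) and NIC alone (blue triangles), all against the same Control array. For KRTAP genes the medians are -3.02, -5.10 and 1.53, and for LCE3 genes 2.19, 2.18 and -1.70.

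The value with both creams was also set against the sum of both single differences. This departure from additivity is the log2 value of ATRA+NIC plus that of Control, minus those of ATRA and NIC, so error of any of the 4 arrays enters it. It was at least 1 above 0 in 304 bright genes (4.78%) and at least 1 below 0 in 265 (4.16%). Among genes 2-fold apart between ATRA+NIC and Control, Cnksr3 had the highest departure (5.77), followed by Defb3 (3.31), Hamp (2.97), Krtap5-1 (2.81) and Lce3b (2.64). Cnksr3 read high only on the Control array, through 1 target, so its departure rests on that array. For Defb3 and Lce3b the NIC array alone was far below Control, while both ATRA arrays were above it. The lowest were Tyrp1 (-2.23), Smad6 (-2.20), an inhibitor of BMP signalling, Lrrc15 (-2.09), Cebpz (-2.05) and Crym (-1.95). Bmp2 read 471 on Control and 191 on ATRA+NIC, with 482 under ATRA alone and 625 under NIC alone, and Smad6 353, 175, 322 and 884, so both were lowest with both creams and highest with NIC. Smad6 had a mean log2 intensity of 8.51, just above the brightness limit, and met that limit through the NIC array alone. The same NIC value, 1.32 above Control, enters its departure of -2.20, which rests in part on that array. The departure of KRTAP genes had a median of 0.51, that of LCE3 genes 1.57.

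The brightness limit cut through genes of like intensity. Just above it stood Asnsd1 (380.5 on Control, 336 on ATRA+NIC), Birc5 (322 and 308), Reck (384 and 388) and Eefsec (317 and 482). Just below it were Deaf1 (330 and 262), Cog5 (420 and 349), Nup37 (366 and 319) and Nkiras1 (310 and 350), none of them 2-fold apart.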

How the data were processed

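Total RNA was measured on 1 NimbleGen array for each of 4 groups. The authors deposited for each array a linear intensity per target, named in the files as RMA output and made from 3 probes per target; the version of the RMA tool and its background step are not stated in the labels or headers. Coordinates and gene names are those of the file headers and design (MM9). The log2 of each intensity was taken without another normalization, the 44170 targets were averaged for each gene name, and genes with a mean log2 of 8.5 or more were described. A series table, also deposited by the authors, holds the same intensity values for 24323 targets with a largest relative difference of 9.05e-07. It was used as an alternative, and 4 further columns with no group name were not used. Counts used a 2-fold threshold. With 1 array in each group there was no test, error or p-value, and so few arrays limit the precision. The members and the 48 gene lists were chosen with earlier results of these data known, and 8 panels of other tissues after the values were seen. Named genes were the 15 highest, the 15 lowest and the 15 lowest outside the hair lists, up to 4 for each list, a fixed set of genes of the cream pathways and the epidermis, the 8 largest departures from additivity in each direction and the 4 nearest the limit on each side, leaving out predicted names. Alternatives were the limit, the brightest target, array centring, cyclic loess (limma 3.58.1, R 4.3.3), the series table, updated symbols and leaving out gene groups. Other steps used Python 3.11.15 with pandas 2.3.3, numpy 2.4.6 and matplotlib 3.10.9. The promoter windows are from RefSeq on GRCm38.p6.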

Additional observations from a re-analysis of the deposited data

Results flagged for a closer look

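Of the bright named genes, 3 stood out because the difference made by ATRA had one sign without NIC and the other sign with it, each at least 0.5 and one at least 1 on the log2 scale. With 1 array for each group, the difference between these differences was not tested. Hamp, hepcidin, read 259 on Control and 154 on ATRA, but 414 on NIC and 1937 on ATRA+NIC, and its departure from additivity was 2.97. Myh4, a fast skeletal muscle myosin, read 1499 on Control and 475 on ATRA, but 288 on NIC and 564 on ATRA+NIC, a departure of 2.63. The 10 bright skeletal muscle markers, Myh4 among them, had a median difference of 0.05 between ATRA+NIC and Control. Cebpz, a CCAAT-binding factor, read 189 on Control and 519 on ATRA, but 772 on NIC and 511 on ATRA+NIC, a departure of -2.05.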

How the results depend on the processing

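The counts of genes at least 2-fold apart, 138 higher and 222 lower, moved most with the brightness limit: at log2 7.5 they were 237 and 360, and at log2 9.5 they were 76 and 145. The brightest target of each gene gave 204 and 288, centring each array on its median 162 and 205, cyclic loess 123 and 240, the deposited series values 160 and 230, and updated symbols 138 and 222. Without the hair lists 138 and 170 remained, and without the hepatocyte panel, a setting added after seeing the data, 134 and 222. The higher share of called genes was 38.3%, and 33.9% to 44.8% under these settings. Of 363 list medians set beside their main value 360 moved by at most 0.45, the spread of the difference between targets of a gene. The others were the aquaporin list at log2 7.5 (0.0573 against 0.51), and the EGF list with the brightest target (0.74) and with the value table (0.91), against 0.22 in the main setting. A tolerance of 0.45 is wider than many list medians, such as 0.39 for NAD genes and 0.29 for retinoid genes. It therefore cannot show that such small medians hold. No list median or named gene past 2-fold changed sign in these settings. Dim genes are limited by background, and very bright ones by the scanner's range. No paired analysis was possible because each group has 1 array, and no array could be left out.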
